A study of Mus musculus with 47 samples.

Results

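The motile cilia and axoneme genes were the rows of a hippocampal RNA-seq count table whose symbol begins with Dnah, Dnaic, Dnaaf, Cfap, Rsph, Tekt or Spag followed by a digit, together with Foxj1, Hydin, Ccdc39, Ccdc40 and Dynlrb2. A row also needed a summed count of at least 47 over the 47 libraries. Of 35486 genes in the table, 86 had such a symbol and 83 met the count minimum. Spag11a and Spag11b (0 reads each) and Cfap97d1 (25 reads) fell short, while Dnah2os (63 reads), Rsph6a (71 reads) and Tekt3 (74 reads) were the members closest to it. The rule reads symbols and summed counts, and it and the comparison of Spag6 were drawn up with earlier results of these data known. Of the 83 members, 72 passed the filter on low counts and were tested.

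The libraries came from snap-frozen hippocampus of male C57BL/6J mice that received vehicle or PF4 (platelet factor 4, a chemokine that platelets release). The groups were Young Veh (n = 13, aged 3.75 to 5.26 months), Young PF4 (n = 12, 4.08 to 5.03 months), Old Veh (n = 12, 17.47 to 19.97 months) and Old PF4 (n = 10, 17.4 to 20.23 months), with each library from a separate mouse as far as the labels tell. The mice carry no engineered allele in the labels. Each label ends in a library number, and every old library has a lower number than every young one. No age difference below can therefore be told apart from the order of these numbers, in vehicle or in PF4 mice. Old Veh numbers also all lie below those of Old PF4. Full-length cDNA was made by Smart-Seq2 and fragmented with Nextera XT, without strand information. Total counts per library ran from 2242879 to 21112908, and 4 of the 8 libraries of lowest total were Old Veh. Levels are given as CPM, the count scaled to the library's total after TMM normalization.

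Motile cilia beat because axonemal dyneins, attached as outer and inner arms, slide the doublet microtubules against each other, while radial spokes and the central pair coordinate the stroke. Dynein arms are built in the cytoplasm by assembly factors before they are carried into the cilium, and Foxj1 and RFX transcription factors switch on the whole set. In the brain, ependymal cells that line the ventricles carry many motile cilia and move cerebrospinal fluid, and the epithelium of the choroid plexus also bears cilia. Most neurons and astrocytes instead bear a single primary cilium that does not beat. A hippocampal dissection can take ventricular lining and choroid plexus with it, and in bulk RNA fewer cells of a type cannot be told apart from less RNA per cell.

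The presence of these tissues was read from markers outside the rule. All 10 ependymal markers (such as Ccdc153, Tmem212 and Rarres2) had reads in every group, and their summed level ran from 31.3 to 68.0 CPM in Young Veh, 27.2 to 53.9 in Young PF4, 29.4 to 53.0 in Old Veh and 32.1 to 46.7 in Old PF4. The 10 choroid plexus markers (such as Ttr and Folr1) varied far more, with summed levels from 12.0 to 4259 CPM in Young Veh (median 1943), 94.0 to 3448 in Young PF4 (median 2380), 15.1 to 4259 in Old Veh (median 47.1) and 25.9 to 3280 in Old PF4 (median 65.9). The ependymal score, the mean log2 CPM of its 10 markers, averaged 1.86 ± 0.35 (SD) in Young Veh, 1.78 ± 0.31 in Young PF4, 1.44 ± 0.44 in Old Veh and 1.58 ± 0.27 in Old PF4. With age, 1 of 10 ependymal markers was called in vehicle mice (Mia, lower) and 0 of 10 in PF4 mice, and 0 of 10 choroid plexus markers in either, by edgeR adjusted p. DESeq2 called 2 ependymal markers in vehicle mice and 0 in PF4 mice. Of the 10, 10 and 8 were below 0, with 4 and 1 at an unadjusted edgeR p below 0.05. All 10 choroid plexus markers were below 0 in both comparisons. Means and medians of both lists were lower in old groups while their ranges overlapped with those of young groups, and each age difference of a member below stands beside them. Several ependymal markers (Enkur, Pifo, Odf3b, Tctex1d4 and Fam183b) are themselves cilia genes, so with this score a lower content of ependymal cells cannot be told apart from lower levels of cilia genes in them. The hippocampal neuron score averaged from 7.34 to 7.39 over the groups and the astrocyte score from 8.49 to 8.53. The microglia score (Cx3cr1, P2ry12 and Csf1r) averaged 6.09 ± 0.12 (SD) in Young Veh, 6.25 ± 0.11 in Old Veh, 6.11 ± 0.07 in Young PF4 and 6.31 ± 0.13 in Old PF4. All 3 microglia markers were above 0 in both age comparisons (medians 0.15 and 0.20), with 2 and 3 of 3 at an unadjusted p below 0.05. By edgeR adjusted p 0 of 3 was called in either, and DESeq2 called 1 in vehicle mice and 0 in PF4 mice. After removal of group means, Pearson's r of Spag6 with the microglia score over the 47 libraries was 0.16 (permutation p 0.350, adjusted over 11 such tests 0.385). Spearman's rho was 0.06 (permutation p 0.718, adjusted 0.790). The part of microglia in the higher levels of Spag6 and Spag9 in old mice was not tested.

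Spag6 had the smallest p of the members in both age comparisons. It encodes a protein of the central pair, and its paralogue Spag6l shares that role. Spag6 lies on chromosome 2 (18694032 to 18750413, plus strand, GRCm38) and Spag6l on chromosome 16 (16753016 to 16829456, minus strand). The longest Spag6 transcript has 2458 bases in 11 exons. Over 1705 aligned bases the longest transcripts of the paralogues were 86.9% identical, and 18 of 2409 windows of 50 bases in Spag6 (0.747%) also occurred in Spag6l, so few reads could be placed on either gene. Gm20539, on the opposite strand, shares 283 exonic bases with that Spag6 transcript and had 185 reads in all, against 2369 on Spag6 and 7584 on Spag6l.

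The promoters of members were searched for the sequence that RFX factors bind, since many members varied together across libraries. RefSeq promoters of 300 bases (250 before and 50 after the start, GRCm38.p6) were found for 67 of the 83 members, 75 promoters in all. The RFX core, GTTGCC on either strand, occurred in 30 of these 75 promoters (40%) and in 12.5% of all 32851 promoters of the same length. The longer palindromic X-box, which can contain that core, occurred in 1 (1.33%, against 0.451% of all promoters), and the forkhead motif TGTTTAC in 4 (5.33%, against 3.65%). Base composition was not matched between these sets. Not every member whose level rose with the ependymal markers held the core. Cfap126, Cfap206, Dnah11 and Dnaic1 rose with them but lacked it in every promoter found, and another promoter of Tekt1 lacks it. The windows of 30 bases below come only from promoters that hold the RFX core (capitals, read as GGCAAC on the other strand). They are from Spag6, its paralogue and 3 members whose levels rose with the ependymal markers, each written 5′ to 3′ on the gene's strand.
Spag6, chr2:18698973-18699002, plus strand: cgattccgactgGTTGCCcaggagtgtggg
Spag6l, chr16:16829314-16829343, minus strand: tccggttgctgtcgGTTGCCctggagacgc
Dynlrb2, chr8:116504952-116504981, plus strand: acttcctgcctgGTTGCCtagcaacggggg
Hydin, chr8:110266952-110266981, plus strand: tgcggttgctgtGGCAACagatggtaacaa
Tekt1, chr11:72361900-72361929, minus strand: tcttctaactagGGCAACgttgcgtccgtc

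The RFX core of Spag6 begins 37 bases before the RefSeq start and that of Spag6l lies after its own. The RefSeq promoter of Spag6 (18698772 to 18699071) lies inside the span given above for the gene, so this start is not the first base of that span. Spag6, its paralogue, Dynlrb2 (a dynein light chain), Hydin (a central pair protein) and Tekt1 (a filament protein of the doublets) each hold the core here. Since only windows with the core were shown, this sets none of them apart from the other members. A match of letters is a description of the window and shows no binding.

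Spag6 was higher in old than in young mice, in vehicle and in PF4 mice alike. In Young Veh its level ran from 2.21 to 4.44 CPM (median 3.57) and in Young PF4 from 2.77 to 4.09 (median 3.61). In Old Veh it ran from 3.67 to 8.63 CPM (median 6.53) and in Old PF4 from 3.51 to 8.40 (median 7.11). The old and young ranges overlapped through few libraries: 11 of 12 Old Veh and 9 of 10 Old PF4 libraries lay above the highest of all 25 young libraries. The exceptions were replicate 9 of Old Veh (3.67 CPM, 10 reads) and replicate 11 of Old PF4 (3.51 CPM, 31 reads), and replicate 9 of Old PF4 (4.441 CPM) lay just above the young maximum of 4.440 CPM. These 3 libraries had high choroid plexus scores (4.89, 5.72 and 5.33 in that order), as did the other old libraries with a score above 4, namely replicates 4, 8 and 10 of Old Veh and 2 and 10 of Old PF4 (4.17 to 6.13). Spag6 in those libraries ran from 6.02 to 8.19 CPM, above every young library, and the part of choroid plexus content in these levels was not tested.

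Mean Spag6 levels were 3.43 ± 0.66 CPM (SD, n = 13) in Young Veh and 6.64 ± 1.39 (n = 12) in Old Veh, and 3.59 ± 0.41 (n = 12) in Young PF4 and 6.75 ± 1.57 (n = 10) in Old PF4. The fitted age difference was 0.93 on the log2 scale (SE 0.11, 1.90-fold) in vehicle mice, with an edgeR adjusted p of 3.85e-07. In PF4 mice, which share no library with the vehicle mice, it was 0.93 (SE 0.12, 1.91-fold, edgeR adjusted p 2.81e-06). By p-value Spag6 ranked 2 of 17778 genes tested in each of these comparisons. With the choroid plexus score as a covariate the values were 0.86 and 0.88, and with the ependymal score 0.88 and 0.92, all still called.

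No difference in Spag6 with PF4 passed the test. The log2 fold change was 0.010 (SE 0.11) between Old PF4 and Old Veh and 0.004 (SE 0.12) between Young PF4 and Young Veh, with an edgeR adjusted p of 1.00 in each. The difference between these PF4 effects was 0.006 (SE 0.16).

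**Figure D1:**
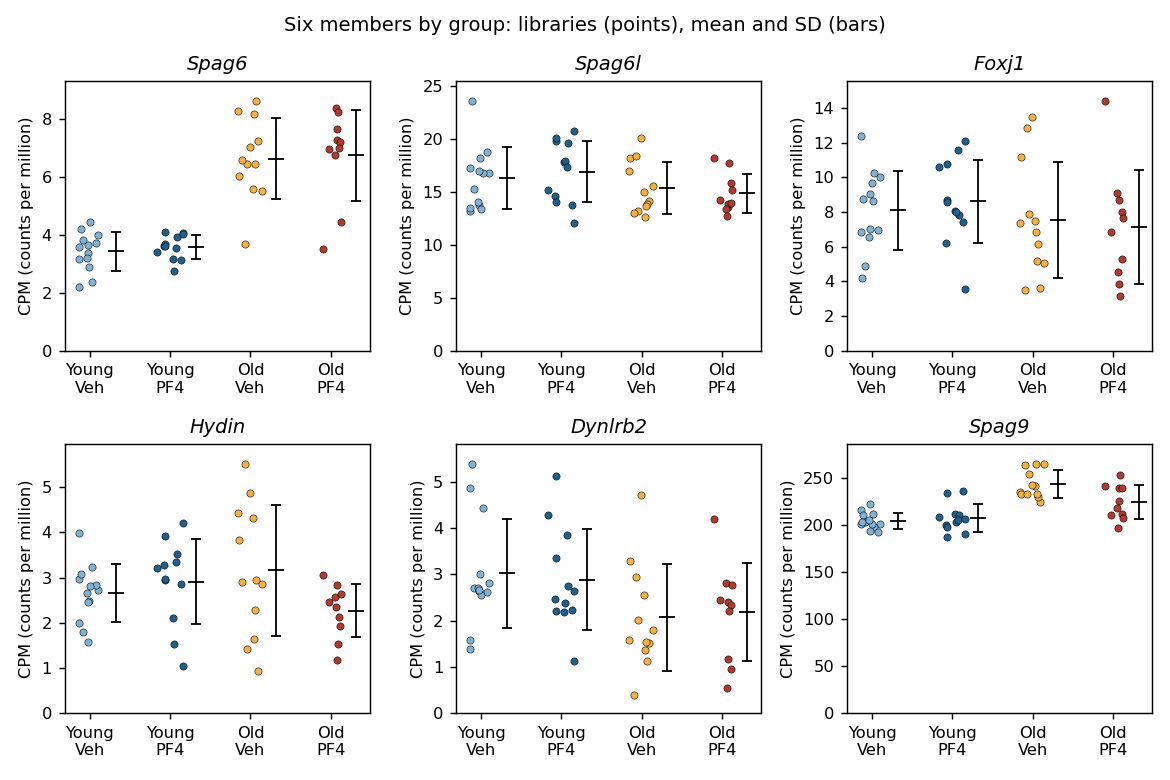
Level of Spag6, Spag6l, Foxj1, Hydin, Dynlrb2 and Spag9 in CPM (vertical axes, each from 0) in the 4 groups, with 1 point per library and bars for the mean ± SD. Spag6 sits between 2.21 and 4.44 CPM in young libraries and mostly above that in old libraries, whereas the ranges of Spag6l, Foxj1, Hydin and Dynlrb2 overlap widely between ages.

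The age difference of Spag6 was set against that of the other tested members. In Old Veh against Young Veh, 2 of 72 members were called (2.78%), beside 2.77% of all 17778 genes tested. Both were higher, beside 2.16% of all genes called higher, so the share of members called was that of the background. In Old PF4 against Young PF4, 1 of 72 was called, Spag6, beside 0.332% of all genes called and 0.304% called higher. Fitted values were below 0 for 53 of the 72 members in vehicle mice (52 with DESeq2's size factors, median log2 fold change −0.09, all genes −0.01) and for 49 of 72 in PF4 mice (median −0.09, all genes 0.00). The median in PF4 mice ran from −0.128 to −0.052 with each library left out. Members took the same direction in both comparisons in 56 of 72 cases (77.8%), 43 lower and 13 higher, against 64.3% of all genes tested. Across the members, then, small lower values prevailed without passing the test, and Spag6 lay at the opposite end.

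With the choroid plexus score as a covariate, 37 of 72 members were below 0 in vehicle mice and 31 of 72 in PF4 mice. With the ependymal score as a covariate the counts were 33 and 40. All genes tested were below 0 in 54% and 47.5% of cases with the choroid plexus score and in 49.8% and 47.8% with the ependymal score, in the same order. Since that score holds cilia genes, its covariate also removes change that cilia genes share, and the part of those tissues in the members' values was not tested.

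**Figure D2:**
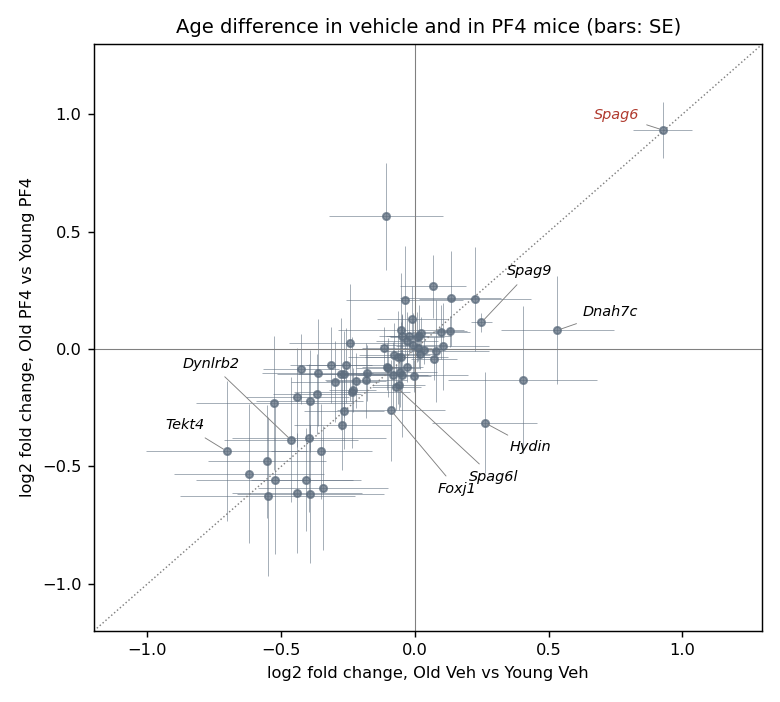
Log2 fold change with age for the 72 tested members in vehicle mice (horizontal axis) and in PF4 mice (vertical axis), with bars for the SE and a dotted line where the values are equal. Spag6 lies at 0.93 on both axes, and 43 of the 72 members lie below 0 on both.

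No age difference in Spag6l, the paralogue, passed the test. Its level ran from 13.2 to 23.5 CPM in Young Veh (median 16.7), 12.1 to 20.7 in Young PF4 (median 17.6), 12.6 to 20.0 in Old Veh (median 14.6) and 12.7 to 18.1 in Old PF4 (median 14.1). No old library lay above the highest young library, and the ranges overlapped throughout. The log2 fold change was −0.07 (SE 0.09, edgeR adjusted p 0.785) with age in vehicle mice and −0.16 (SE 0.10, edgeR adjusted p 0.704) in PF4 mice. Per kilobase of its longest transcript Spag6l averaged 6.58 CPM and Spag6 2.03 CPM over all libraries.

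Among regulators, Foxj1, the transcription factor that drives motile ciliogenesis, ran from 4.18 to 12.4 CPM in Young Veh (median 8.62), 3.58 to 12.1 in Young PF4 (median 8.30), 3.49 to 13.5 in Old Veh (median 7.09) and 3.14 to 14.4 in Old PF4 (median 7.25). The ranges of all groups overlapped. Its log2 fold change with age was −0.09 (SE 0.20) in vehicle and −0.26 (SE 0.21) in PF4 mice, and neither was called. Of a further list of multiciliation regulators, 7 of 9 genes were tested and none was called, with medians of −0.26 and −0.23 in these comparisons. In that list Rfx3 stood at −0.01 and −0.07, Rfx2 at −0.30 and −0.39, and Gmnc (the geminin relative at the top of the programme) at −0.38 and −0.50.

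Outer arm dynein heavy chains, the motors that set beat frequency, were represented by 5 tested members and none was called. Dnah9 had the highest level of them (mean 21.6 ± 2.3 CPM in Young Veh and 23.9 ± 2.1 in Old Veh), and its log2 fold change was 0.13 (SE 0.06, edgeR adjusted p 0.293) in vehicle and 0.07 (SE 0.07) in PF4 mice. Dnah17 stood at 0.07 in vehicle mice and −0.04 in PF4 mice. The values of this class lay from −0.24 to 0.40 in vehicle mice and from −0.13 to 0.08 in PF4 mice, on either side of 0.

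Inner arm dynein heavy chains, which shape the bend, held 10 tested members, of which none was called. Dnah1 (9.95 ± 0.97 CPM in Young Veh, 9.49 ± 1.64 in Old Veh) and Dnah14 (5.26 ± 1.01 and 5.46 ± 1.18) had the highest CPM. Dnah6 stood at −0.36 in vehicle and −0.10 in PF4 mice, and Dnah10 at −0.53 and −0.23. Dnah7c had the largest positive value in vehicle mice after Spag6, 0.53 (SE 0.21, edgeR adjusted p 0.184), but 0.08 in PF4 mice, while Dnah7a stood at −0.11 and 0.57. Dnah7a, Dnah7b and Dnah7c are near copies, with 30.3% to 38.5% of the 50-base windows of their longest transcripts shared pairwise, so the split of reads among them is uncertain. The difference in PF4 effect between ages for Dnah7a, 0.67 (SE 0.31), had an unadjusted p of 0.0364 and an edgeR adjusted p of 1.00.

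The dynein intermediate chains, which hold the arms to the doublets, did not pass the test. Dnaic1 stood at −0.26 (SE 0.15) in vehicle and −0.07 in PF4 mice, and Dnaic2 at −0.27 (SE 0.18) and −0.32. The dynein light chain Dynlrb2 ran from 1.39 to 5.39 CPM in Young Veh (median 2.70), 1.13 to 5.12 in Young PF4 (median 2.55), 0.388 to 4.71 in Old Veh (median 1.69) and 0.551 to 4.19 in Old PF4 (median 2.36). Its lowest values were in old libraries, and the ranges overlapped over most of their length. The log2 fold change was −0.46 (SE 0.25, edgeR adjusted p 0.376) in vehicle mice and −0.39 (SE 0.27) in PF4 mice.

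Assembly factors, which fold and join the dynein arms in the cytoplasm, were 6 members and none was called. Dnaaf5 had the smallest p of them in vehicle mice (−0.23, SE 0.09, unadjusted p 0.0113, edgeR adjusted p 0.159) and stood at −0.17 in PF4 mice. Dnaaf2, with the highest level (23.7 ± 2.7 CPM in Young Veh), was at 0.02 and −0.02. Spag1 was at −0.11 and 0.01.

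Radial spoke members (6 tested of 8), which pass signals from the central pair to the arms, were all below 0 in vehicle mice, from −0.39 to −0.01, and none was called. Rsph1 stood at −0.39 (SE 0.20) and −0.22 in vehicle and PF4 mice, Rsph4a at −0.27 (SE 0.15) and −0.26, and Rsph9, whose sign in vehicle mice changed under several other settings, at −0.01 and 0.13. Rsph3a and Rsph3b share 74.0% of the 50-base windows of the former, so the split of their reads is uncertain.

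The central pair class held 8 tested members, Spag6 among them. Hydin, a giant protein of the central pair, ran from 1.57 to 3.98 CPM in Young Veh (median 2.73), 1.04 to 4.21 in Young PF4 (median 3.09), 0.934 to 5.51 in Old Veh (median 2.93) and 1.18 to 3.06 in Old PF4 (median 2.40). It was spread most widely in Old Veh, where 4 of 12 libraries lay above every young library. The log2 fold change with age was 0.26 (SE 0.20, edgeR adjusted p 0.554) in vehicle and −0.31 (SE 0.21, edgeR adjusted p 0.751) in PF4 mice. Its difference between Old PF4 and Old Veh was −0.44 (SE 0.22), with an unadjusted p of 0.0476 that did not pass the adjustment (edgeR adjusted p 0.798). Cfap74, another central pair gene, stood at 0.02 and 0.07 with age.

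The doublet rulers Ccdc39 and Ccdc40, which set the repeat along the doublets, were not called with age. Ccdc39 ran from 26.5 to 34.9 CPM in Young Veh (median 29.8), 25.8 to 38.1 in Young PF4 (median 30.6), 26.1 to 37.02 in Old Veh (median 28.97) and 23.3 to 34.8 in Old PF4 (median 27.9), so the groups overlapped. Its log2 fold change was −0.002 (SE 0.06) in vehicle mice and −0.12 (SE 0.07) in PF4 mice. Ccdc39 overlaps Ttc14 on the opposite strand, which had 88227 reads against 14230, and reads of the pair cannot be told apart by strand. Ccdc40 stood at −0.18 and −0.13.

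Tektins, filament proteins of the doublet wall, were 3 tested members of 5. Tekt1 ran from 2.00 to 11.6 CPM in Young Veh (median 5.31), 2.26 to 9.29 in Young PF4 (median 7.15), 2.00 to 8.60 in Old Veh (median 3.18) and 1.65 to 8.27 in Old PF4 (median 3.68). The medians were lower in old groups and the ranges overlapped. The log2 fold change was −0.39 (SE 0.28, edgeR adjusted p 0.525) in vehicle and −0.62 (SE 0.29, edgeR adjusted p 0.565) in PF4 mice. Tekt4 stood at −0.70 (SE 0.30) and −0.43 at group means between 0.447 and 0.971 CPM, with 0 reads in 3 Old Veh libraries, and Tekt5 at 0.01 and 0.05.

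The other Cfap genes, cilia and flagella associated proteins of varied place in the axoneme, were 23 tested members of 27, and none was called. Values were below 0 for 19 of 23 in vehicle mice (median −0.22) and for 16 of 23 in PF4 mice (median −0.11). Cfap45, a protein inside the doublets, stood at −0.42 (SE 0.14, unadjusted p 0.00448, edgeR adjusted p 0.0979) and −0.08, Cfap52 at −0.44 and −0.61, and Cfap57 at −0.41 and −0.56. Cfap36 and Cfap20, whose per-kilobase levels of 53.0 and 19.2 CPM were far above that of Foxj1 (3.01), stood at 0.01 and −0.02 in vehicle mice.

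The Spag prefix means sperm associated antigen and does not by itself name a part of the axoneme. Spag9, which encodes a scaffold of JNK signalling and vesicle transport, was the other member called in vehicle mice. It ran from 193 to 222 CPM in Young Veh (median 204), 188 to 236 in Young PF4 (median 206), 225 to 265 in Old Veh (median 238) and 197 to 253 in Old PF4 (median 222). Every Old Veh library lay above every Young Veh library, and 4 of 10 Old PF4 libraries lay above every Young PF4 library. The log2 fold change was 0.25 (SE 0.04, edgeR adjusted p 3.18e-05) in vehicle mice and 0.11 (SE 0.04, edgeR adjusted p 0.337) in PF4 mice. The difference between these age effects was −0.14 (SE 0.06, unadjusted p 0.0192) and did not pass the adjustment (edgeR adjusted p 1.00). Spag5 (a spindle protein) and Spag7 stood at 0.02 and 0.03 in vehicle mice, and Spag8, a protein inside the doublets, at −0.06.

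**Figure D3:**
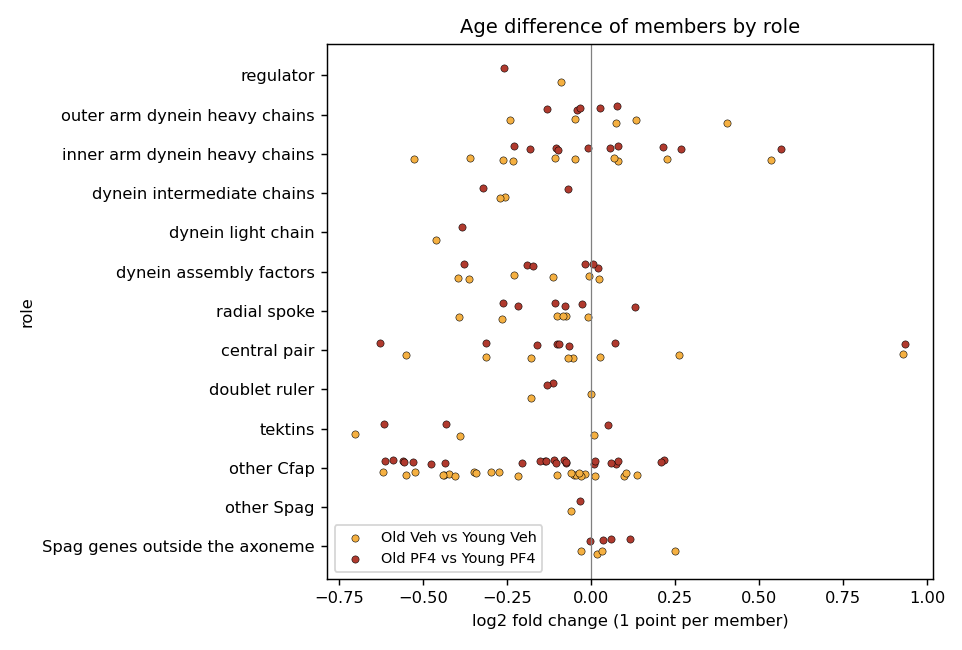
Log2 fold change with age (horizontal axis) of the 72 tested members, grouped by role, with 1 point per member for vehicle mice and 1 for PF4 mice. The tektins, radial spoke and other Cfap classes lie mostly below 0, and Spag6 at 0.93 is the point farthest above 0 in the central pair class.

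No member was called for PF4 in old mice, in young mice or in the difference between them, beside 0.0337%, 0% and 0% of all genes tested. At an unadjusted p below 0.05 there were 2, 0 and 2 of 72 members, beside 1102, 213 and 707 of all 17778 genes tested. DESeq2 also called none of the members. The median log2 fold change was 0.01 in old mice, 0.02 in young mice and 0.03 for the difference. The median in old mice took no stable sign, since it was 0.092 (49 of 72 above 0) without replicate 10 of Old Veh, −0.030 (29 of 72 above 0) without replicate 11 of Old PF4 and 0.044 with the replicate block. The median of the difference ran from −0.016 to 0.071 with each library left out, its extremes without the same pair of libraries. That in young mice ran from 0.005 to 0.048, its extremes without replicate 3 of Young PF4 and replicate 4 of Young Veh.

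Spag6 was then compared directly with the ependymal markers. The difference between log2 CPM of Spag6 and the ependymal score averaged −0.02 ± 0.45 (SD, n = 13) in Young Veh, 0.13 ± 0.37 (n = 12) in Young PF4, 1.298 ± 0.613 (n = 12) in Old Veh and 1.18 ± 0.56 (n = 10) in Old PF4. It was 1.32 higher in Old Veh than in Young Veh (two-sided permutation p 1e-05, the smallest that 100000 resamples can give, adjusted over 5 comparisons 5e-05), and 8 of 12 Old Veh libraries lay above every Young Veh library. In PF4 mice it was 1.04 higher in old mice (permutation p 0.00018, adjusted 0.00045), with 7 of 10 Old PF4 libraries above every Young PF4 library. Part of this gap was the score itself, whose mean was lower in old groups (1.44 against 1.86 in vehicle mice and 1.58 against 1.78 in PF4 mice). The same difference was also taken for 3 other members, a test added after the data were seen. For Spag6l it was 0.34 higher in Old Veh than in Young Veh (permutation p 0.00585, adjusted over 5 comparisons 0.0292) and 0.02 higher in Old PF4 than in Young PF4 (permutation p 0.784, adjusted 0.784). For Foxj1 it was 0.25 (permutation p 0.0985, adjusted 0.270) and −0.13 (permutation p 0.546, adjusted 0.546), and for Tekt1 0.004 (permutation p 0.983, adjusted 0.983) and −0.38 (permutation p 0.106, adjusted 0.293). Spag6 had the largest value of these 4 genes in both sets of mice. The same score was subtracted for each gene, so this order is only that of their own age differences. Spag6 was chosen with earlier results known, so its place is no separate evidence. Between Old PF4 and Old Veh the difference was −0.12 (permutation p 0.634, adjusted 0.634), and between Young PF4 and Young Veh 0.15 (permutation p 0.366, adjusted 0.458). The change of this PF4 effect with age was −0.28 (permutation p 0.343, adjusted 0.458).

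Library by library, no relation of Spag6 to the ependymal score passed the test. After removal of the group means, Pearson's r over the 47 libraries was −0.21 (permutation p 0.164, adjusted over all 17778 genes tested 0.348) and Spearman's rho −0.19 (permutation p 0.234, adjusted 0.478). Without the 2 libraries farthest from the median score r was −0.30. Within groups r was −0.03 in Young Veh (n = 13), −0.18 in Young PF4 (n = 12), −0.28 in Old Veh (n = 12) and −0.40 in Old PF4 (n = 10). The permutation p-values were 0.930, 0.564, 0.389 and 0.249 in that order, adjusted over 8 such tests 0.930, 0.645, 0.519 and 0.398. Against the choroid plexus score r was −0.31 (permutation p 0.0464, adjusted over all genes 0.258) and rho −0.17 (permutation p 0.265, adjusted 0.596).

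**Figure D4:**
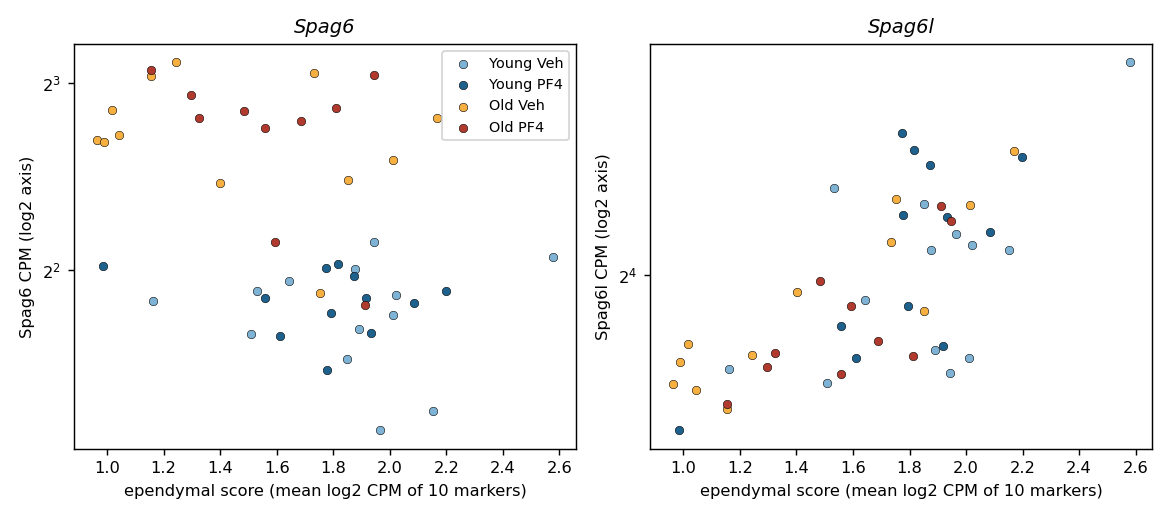
Level of Spag6 (left) and Spag6l (right) in CPM on log2 axes against the ependymal score of each library, colored by group. Old libraries lie above young ones for Spag6 at low and high scores, apart from replicate 9 of Old Veh and replicate 11 of Old PF4, while Spag6l rises with the score over the 47 libraries, most clearly in Old Veh.

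Many other tested members rose with the score. Of the 72, 62 had a positive r (86.1%, against 50.9% of all 17778 genes tested) and 34 passed a permutation p of 0.05 adjusted over all genes, all of them positive (47.2%, against 8.82% of all genes with a positive and 7.73% with a negative r). The median r was 0.30 over the members and 0.01 over all genes. The highest r were those of Dynlrb2 (0.77), Tekt1 (0.76), Rsph1 (0.75), Cfap126 (0.73) and Spag6l (0.72), each with a permutation p of 1e-05, the smallest the resamples can give. For Spag6l rho was 0.64, and r was 0.67 without the 2 libraries farthest from the median score. Within groups, r of Spag6l was 0.58 in Young Veh (permutation p 0.0371, adjusted over 8 such tests 0.0743), 0.68 in Young PF4 (permutation p 0.0079, adjusted 0.0316), 0.90 in Old Veh (permutation p 0.00021, adjusted 0.00168) and 0.74 in Old PF4 (permutation p 0.014, adjusted 0.0374). In young mice this relation rested on few libraries, since r was 0.05 in Young Veh and 0.35 in Young PF4 without the 2 farthest, and rho was 0.35 (permutation p 0.239, adjusted 0.478) and 0.41 (permutation p 0.194, adjusted 0.478). In old mice r was 0.81 and 0.54 without the 2 farthest, and rho 0.81 (permutation p 0.00236, adjusted 0.0189) and 0.70 (permutation p 0.0301, adjusted 0.121). For Foxj1 r was 0.67 and rho 0.64. The genes at the low end were Spag6 (−0.21), Dnah7c (−0.15), Tekt5 (−0.14), Dnah9 (−0.11) and Dnah8 (−0.10), and none of these passed the test. The libraries share their dissection and depth with both sides of these correlations, and the ependymal and choroid plexus scores were themselves correlated (r = 0.62). Against the choroid plexus score, Spag16, a central pair gene, had an r of 0.93 and Foxj1 0.80.

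The members were then split by this r. Of the 23 members with r above 0.5, 21 were below 0 in Old Veh against Young Veh (median −0.27) and 20 in Old PF4 against Young PF4 (median −0.22). Of the other 49, 32 and 29 were below 0, with medians of −0.05 and −0.03. Values well below 0 also occurred among these 49, as for Tekt4 (−0.70 in vehicle mice, r 0.25) and Dnah10 (−0.53, r 0.13). The counts of these sets were not compared by a test. This is a description, since correlation and age values came from the same libraries.

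**Figure D5:**
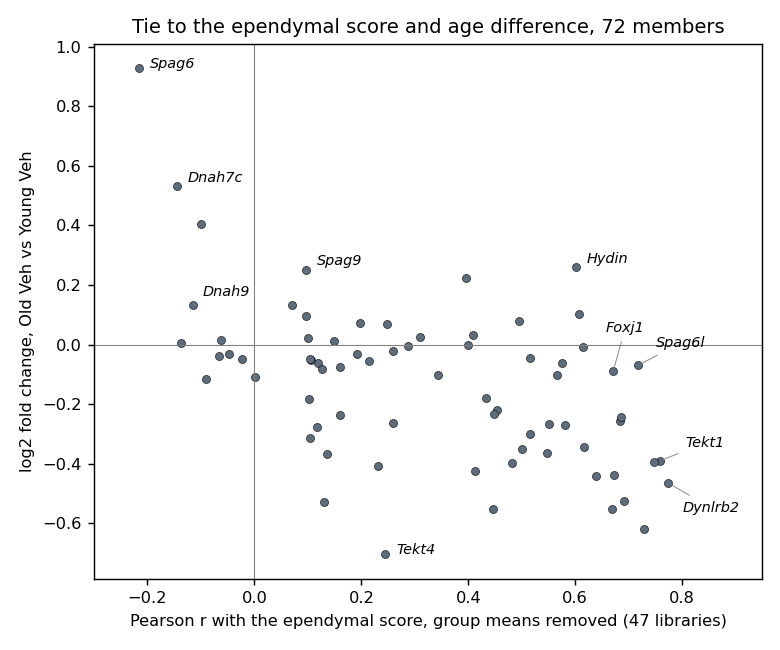
Pearson's r with the ependymal score after removal of group means (horizontal axis) and log2 fold change of Old Veh against Young Veh (vertical axis) for the 72 tested members. Spag6 is at −0.21 and 0.93, apart from Dynlrb2, Tekt1, Spag6l and Foxj1 at r of 0.67 and above.

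A list of axoneme genes outside the symbol rule was set beside the members. Of 37 tested, 34 were below 0 in vehicle mice (91.9%, against 54.7% of all genes tested, median −0.20) and 32 in PF4 mice (86.5%, against 48.3%, median −0.15). With the choroid plexus score as a covariate these counts were 23 (62.2%, against 54% of all genes) and 19 (51.4%, against 47.5%). With the ependymal score they were 19 (51.4%, against 49.8%) and 23 (62.2%, against 47.8%), and the part of those tissues in this list was not tested. Those called in vehicle mice were Ccdc151 (−0.47, SE 0.13, edgeR adjusted p 0.0301), a docking factor of the outer arms, and Iqcg (−0.34, SE 0.08, edgeR adjusted p 0.0104), a protein of the link between doublets, both lower, beside 0.607% of all genes called lower. Ccdc151 was still called with either score as a covariate, and Iqcg with the ependymal but not with the choroid plexus score. In PF4 mice they stood at −0.46 and −0.10 and no gene of this list was called. Genes of the primary cilium lay on both sides of 0. Of 18 tested, 10 were below 0 in each comparison, with medians of −0.01 and −0.02, and none was called. Examples are Ift88 (intraflagellar transport) at 0.03 and −0.06, and Adcy3 (a cyclase of neuronal cilia) at −0.02 and −0.05.

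The 11 members that did not pass the count filter were Spag17os, Dnah2os, Cfap221, Cfap77, Cfap99, Cfap73, Cfap53, Rsph6a, Rsph14, Tekt2 and Tekt3, with 63 to 290 reads each over all 47 libraries. Spag17os and Dnah2os are antisense to Spag17 and Dnah2, and without strand their reads cannot be told from those of their partners. Fitted with edgeR without the filter, which tested all 83 members, none of these 11 was called in any comparison. Rsph14, a radial spoke gene chosen here after its values were seen, averaged 0.685 ± 0.368 CPM (SD) in Young Veh, 0.573 ± 0.286 in Young PF4, 0.276 ± 0.186 in Old Veh and 0.385 ± 0.175 in Old PF4. Among all members, 21 are overlapped by another gene with at least as many reads, including Dnah14, Dnah17, Dnaic1, Dnaaf2, Ccdc39 and Rsph9, and reads in the shared part cannot be assigned by strand.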

How the data were processed

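The deposited file holds whole-number counts per gene that the authors did not normalize. Per the labels, reads were trimmed with Trim Galore 0.3.7 and aligned with STAR 2.5.3a to GRCm38, and DESeq2 was used; the counter and annotation are not given in the sources used here. Libraries of low coverage had been removed by the authors. Totals of 2242879 to 21112908 counts limit the precision of genes with few reads. Replicates are the samples the labels name.

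Counts were fitted over the 4 groups together with edgeR 4.0.16 (R 4.3.3), quasi-likelihood test, TMM and filterByExpr (17778 genes), with Benjamini-Hochberg adjustment over all of them and calls at 0.05. SE was taken as the size of the log2 fold change over the root of F. A prior count of 2 went into log2 CPM. Lengths and positions came from GENCODE M21, which places 81 of the 83 members. Permutation tests used 100000 resamples (scipy), within groups for correlations. Members named in the text are Spag6, Spag6l and those the rule lists, every called member, the 2 of highest CPM in each role class and the 5 of smallest p in each comparison; genes outside this rule were named after their values were seen. The members and lists were chosen with earlier results of these data known.

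On simulated counts for Old Veh against Young Veh (17778 genes), edgeR recovered 96 of 100 genes changed by 1 on the log2 scale and 74 of 100 changed by 0.5, with 9 other calls. DESeq2 1.42.0 recovered 94 and 76, with 14 others. The changed genes were drawn at random from all genes tested, so these shares need not hold for members of low level or wide spread. Same-numbered libraries were weakly correlated (median correlations from −0.08 to 0.11), which cannot exclude a pairing. For Old Veh and Old PF4 the median was 0.11, against −0.02 over all pairs, and some same-numbered old mice had the same age. Libraries were fitted as unpaired outside the replicate block. Alternatives were DESeq2's test and size factors, other filters, groups compared alone, a replicate block, marker scores as covariates, another form of the score, and libraries left out. The marker scores as covariates for the axoneme list outside the symbol rule, and the adjustment of correlations over all genes, were added after the data were seen.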

Additional observations from a re-analysis of the deposited data

Results flagged for a closer look

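Groups of 10 allow a test for a single outlying library, and Old PF4 is the group of that size. Of 36 members examined there, 5 had a library whose gap to its nearest neighbour exceeded 0.466 of the group's range, and chance flags about 1 in 20 groups. Replicate 11 was high for Foxj1 (14.4 CPM, next 9.09), Rsph4a (11.4 CPM, next 7.41) and Tekt1 (8.27 CPM, next 4.87), and it was also the Old PF4 library with the lowest Spag6. Its choroid plexus score was the highest of Old PF4 (5.72) and its ependymal score (1.91) was second to that of replicate 8 (1.95), and the part of those tissues in its values was not tested. Replicate 8 was high for Cfap36 (115.8 CPM, next 94.2). Replicate 9 was high for Dnah7c (1.94 CPM, next 1.27).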

How the results depend on the processing

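Of 428 values under alternatives other than leaving out 1 library, 391 kept their direction and their side of the threshold, and 37 changed sign; none of these crossed the threshold, and the causes were not tested. Spag6 was called with age in both sets of mice under every alternative, and its log2 fold change ran from 0.89 to 0.96 in vehicle and from 0.89 to 1.01 in PF4 mice with each library left out. The replicate block gave 0.90 in both and changed no call. Of same-numbered pairs, 3 of 12, 3 of 10, 5 of 10 and 4 of 12 correlated above 0.1, which cannot settle whether the numbers pair the libraries. The number of members called in vehicle mice ran from 2 to 3, with Cfap45 added without replicate 7 of Young Veh and Cfap61 without replicate 10 of Old Veh.

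With the choroid plexus score as a covariate the vehicle age values changed sign for Spag6l (0.084), Foxj1 (0.26), Ccdc39 (0.080), Dnaic2 (0.032), Spag8 (0.18), Rsph9 (0.17), Rsph4a (0.0052), Tekt1 (0.18), Cfap52 (0.028), Dnah6 (0.013) and Spag5 (−0.020). With the ependymal score they did for Spag6l (0.12), Foxj1 (0.27), Ccdc39 (0.070), Dynlrb2 (0.072), Dnaic1 (0.032), Dnaic2 (0.0065), Cfap20 (0.060), Spag8 (0.26), Rsph9 (0.26), Tekt5 (−0.019) and Tekt1 (0.17). Without the 8 libraries of lowest total they did for Dnah1 (0.0034), Cfap36 (−0.0082), Cfap20 (0.0047), Rsph9 (0.013) and Tekt5 (−0.078). Ccdc39 became 0.00062 with DESeq2 size factors and 0.0018 with the groups alone, and Rsph9 0.0052 with the replicate block.

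For Spag6 in Young PF4 against Young Veh the sign changed with DESeq2 (−0.0086), the choroid plexus score (−0.00037), the ependymal score (−0.0093) and without the 8 libraries (−0.026), and the difference of PF4 effects became −6.57e-05 with at least 10 reads in 10 libraries. Set against 5 member cilia genes in place of the markers, Spag6 was 0.083 higher in Old PF4 than Old Veh, and the change of the PF4 effect with age became 0.065. With each library left out, Spag6 ran from −0.031 to 0.082 for PF4 in old mice, −0.027 to 0.040 in young mice and −0.039 to 0.074 for the difference. In vehicle mice Ccdc39 ran from −0.036 to 0.019, Cfap20 from −0.046 to 0.061, Cfap74 from −0.00028 to 0.050, Dnaaf2 from −0.0035 to 0.042, Rsph9 from −0.082 to 0.12, Spag5 from −0.043 to 0.058, Spag8 from −0.16 to 0.019 and Tekt5 from −0.022 to 0.084. Other members kept their sign but moved by over 1.5 times, of which examples follow, none of them called. Foxj1 ran from −0.228 to −0.00063, Spag6l from −0.112 to −0.0069, Dnah1 from −0.090 to −0.017, Dnah7a from −0.196 to −0.022 and Tekt1 from −0.593 to −0.212. Cfap36 ran from 9.7e-05 to 0.048, Dnah14 from 0.015 to 0.118, Dnaic1 from −0.345 to −0.165, Dnaic2 from −0.437 to −0.210 and Hydin from 0.164 to 0.387.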

Other observations

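Within old mice, Spag6 was not detectably related to age in months (17.4 to 20.23 months, 22 mice, group means removed): Pearson's r was 0.22 (permutation p 0.349, adjusted over 2 age classes 0.402), Spearman's rho 0.02 (permutation p 0.927, adjusted 0.927), and r was 0.24 without the 2 mice farthest from the median age. In the 25 young mice r was 0.20 (permutation p 0.402, adjusted 0.402) and rho 0.22 (permutation p 0.307, adjusted 0.615). This relation was chosen after the Spag6 values had been seen.

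The genes whose levels across the 47 libraries were most like that of Spag6 after removal of group means, out of 17778, were Mturn (r = 0.68), Lhfpl1 (r = 0.67) and Fbxo25 (r = 0.64), of which none is an axoneme gene by name. Bmi1, which ends upstream of Spag6 on the same strand, stood at 0.02 (SE 0.06) with age in vehicle mice and 0.00 (SE 0.07) in PF4 mice. Gm20539, which shares exonic bases with Spag6, is not set beside it here. Without strand information, reads in their shared part cannot be assigned to either gene.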
